A study of Mus musculus with 2 samples.

Results

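Among the single myofibers of 1 mouse, 81 were rich in genes and in mitochondrial RNA at the same time. They were chosen by their number of detected genes and their mitochondrial share, as whole myofibers with more than 5000 genes detected and with 20% or more of their gene counts from the 27 mitochondrial gene rows of the table (names starting mt-), and they made up 81 of the 763 cells sequenced. They are compared with the 168 whole myofibers that also had more than 5000 genes but less than 20% mitochondrial counts, here called comparison cells. Whole is the deposited label, and per the study's methods particles of high optical extinction were sorted from a gate of long and a gate of short particles, of which the short ones held rod-shaped pieces of fibers. Which gate a cell came from is not given in the sources used here, so either group may hold both. The mitochondrial share and the number of genes chose the members, so their values are given as a description and support nothing.

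The muscle was the FDB (flexor digitorum brevis), which flexes the toes and holds mostly fast fibers, of an untreated C57BL/6J mouse more than 3 months of age. After collagenase digestion, large particle FACS placed 1 myofiber or fragment in each well, and mcSCRB-seq counted RNA molecules by unique molecular identifiers (UMIs) beside synthetic ERCC spike-in RNA. The same 96 cell barcodes served on every plate, and 0 full barcodes were shared between plates or lanes. A plate here is the set of cells that share a library index (705 to 712). The 8 plates were sequenced on 2 lanes. Lane 1 held 41 members and 86 comparison cells, and lane 2 held 40 members and 82 comparison cells. The cell numbers of plates 705 to 708 add up to those of lane 1, so lane and plate set cannot be told apart. Members and comparison cells thus shared mouse, strain, digestion, sort, plates and lanes. All belong to 1 biological sample, so no p-value was computed, and all limits given are for counting error only.

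Mitochondria keep their own small genome, which encodes a few proteins of the respiratory chain together with the ribosomal and transfer RNAs that translate them. These transcripts are made and held inside the organelle, behind membranes. All other proteins of the fiber, including most respiratory chain subunits, come from mRNAs of the many myonuclei, which lie in the cytoplasm and along the contractile lattice. In single-cell work a high mitochondrial share is commonly used as a sign of damaged cells, while muscle fibers also differ in how many mitochondria they hold.

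The mitochondrial share of the members ran from 20.1% to 76.9% with a median of 42.0%. In the comparison cells the median was 5.69% and the highest 19.7%, so that the cells nearest the limit on either side were at 20.1% and 19.7%. The member with the fewest genes had 5002. The whole myofiber with 20% or more mitochondrial counts that missed the gene minimum most narrowly had 4893 genes, and 318 such cells were left out. Of the other cells, 421 were whole myofibers with 5000 genes or fewer, on either side of the mitochondrial limit, and 93 were fragments.

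Members were the shallower cells. Their median was 30867 nuclear counts with a range from 13749 to 112012, and that of the comparison cells was 225761 with a range from 23951 to 1438767. Reads per UMI had medians of 4.56 and 6.70. Nuclear RNAs are given below as counts summed over the cells of a group and scaled to a total of 1000000 nuclear counts (nuclear CPM), which leaves the mitochondrial genes out of the total. The 81 members summed to 3000910 nuclear counts and the 168 comparison cells to 48576640.

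The spike-in separates the parts of the mitochondrial share. The scale takes the ERCC RNA to be equal in all wells, which the sources used here do not state. The median was 175 ERCC counts per member and 193.5 per comparison cell. Nuclear counts per ERCC count ran from 36.9 to 1118 in the members with a median of 174, and from 223 to 3634 in the comparison cells with a median of 1272. The medians differed 7.32-fold, and members were lower on all 8 plates, by 2.78-fold to 13.4-fold. Mitochondrial counts per ERCC count had medians of 139 in the members and 72.0 in the comparison cells, 1.93-fold higher in the members, and higher on all 8 plates, by log2 values of 0.36 to 1.24. The ranges of the groups overlapped on both scales. The rule limits the quotient of these measures, and its gene minimum also limits how few nuclear counts a cell of either group could have. In the cells so chosen, nuclear RNA per spike-in differed more than mitochondrial RNA per spike-in, which is a description.

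**Figure D1:**
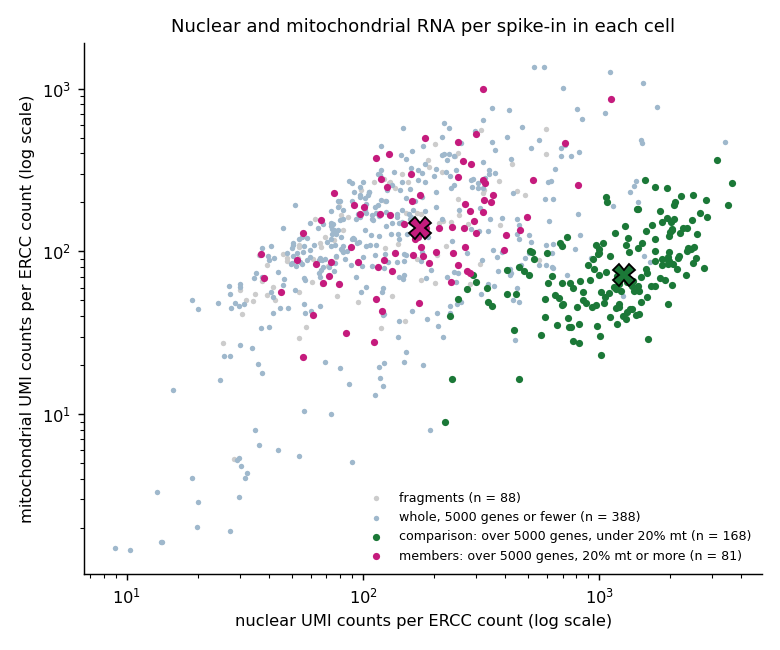
Nuclear UMI counts per ERCC count (x, log scale) against mitochondrial UMI counts per ERCC count (y, log scale), 1 point per cell with an ERCC count, coloured by cell group, with crosses at the medians of members and comparison cells. Members lie to the left of the comparison cells (medians 174 and 1272) and somewhat above them (medians 139 and 72.0), among the whole myofibers with few genes.

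Within the members, a larger mitochondrial share went with less nuclear and more mitochondrial RNA per spike-in. The 16 members between 20% and 30% had medians of 262 nuclear and 79.6 mitochondrial counts per ERCC count. The 18 members from 60% to 80% had 107 and 237. Since the share is made of both quantities, this order describes the members and is no independent result.

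The mitochondrial transcripts themselves were present in nearly the same proportions in both groups. The ribosomal RNAs mt-Rnr1 and mt-Rnr2 made up 20.9% and 40.1% of mitochondrial counts in members, and 19.5% and 41.3% in comparison cells. Of the mRNAs, mt-Nd1 (a subunit of complex I) was at 8.62% and 8.42%, mt-Co1 (the catalytic subunit of cytochrome oxidase) at 4.77% and 4.67%, and mt-Nd4l at 8.20% and 8.51%. The lowest and highest values of single cells overlapped for each of these genes.

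Small shifts within the mitochondrial RNA were seen for the ATP synthase subunits and for mt-Nd2. mt-Atp6 made up 0.508% of mitochondrial counts in members and 0.344% in comparison cells, a log2 ratio of 0.56 (95% limits 0.53 to 0.60), with 0.62 on lane 1 and 0.54 on lane 2. mt-Atp8 was at 0.480% and 0.373%, and mt-Nd2 at 3.54% and 2.80%. mt-Cytb (cytochrome b of complex III) was the other way, at 9.06% and 10.4%. In the whole myofibers with few genes mt-Atp6 was at 0.586% and mt-Nd2 at 4.27%, farther from the comparison cells than in the members. mt-Cytb was at 11.0% there, on the other side of the comparison cells, mt-Nd1 at 12.3% and mt-Rnr2 at 34.4%. Among the transfer RNAs, all rare, mt-Tv had a log2 ratio of 1.50, with 0.01 on lane 1 and 1.66 on lane 2. The gene mt-Co2 held only 0.00331% of mitochondrial counts in members, and mt-Co3 and mt-Nd4 are not among the 27 mitochondrial gene rows. Nuclear loci that match mt-Co3 and mt-Nd4 at 100% identity, Gm28437 and Gm28439, held 10631 and 2923 counts in members. These counts are part of the nuclear total and not of the proportions above, and the origin of their reads was not tested.

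Of 35136 nuclear gene rows, 10644 had a mean of at least 10 CPM over both groups and are called measured. Of these, 3423 were at least 2-fold higher in the members (32.2%) and 509 at least 2-fold lower (4.78%), with a median log2 ratio of 0.33. After each cell was thinned to 19000 nuclear counts, 30.1% of measured genes were at least 2-fold higher and 5.99% at least 2-fold lower. Scaling by TMM factors, which centre the ratios on the bulk of the genes, shifts every log2 ratio by -0.35, and the share of higher calls among all 2-fold calls is then 64.5% in place of 87.1%. Genes with log2 ratios between 1 and 1.35 are then under 2-fold. Log2 ratios below are on nuclear CPM unless another scale is named, and are to be read against the median of 0.33. Counts of list genes past 2-fold are to be read against the shares of 32.2% higher and 4.78% lower. On the spike-in scale, 50 measured genes (0.47%) were at least 2-fold higher in members, 9410 (88.4%) were at least 2-fold lower, and the median log2 ratio was -2.59.

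**Figure D2:**
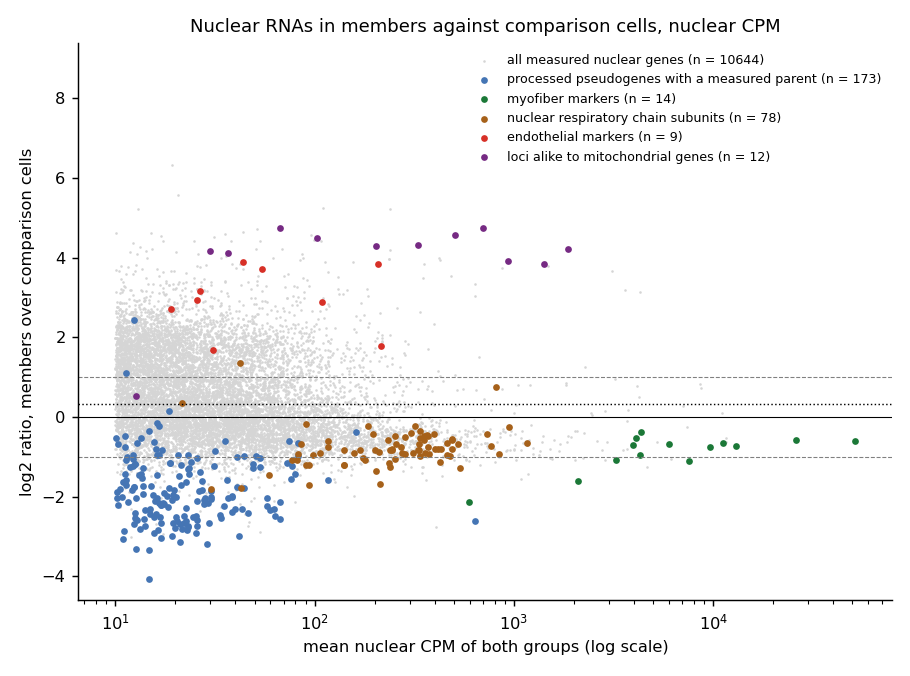
Mean nuclear CPM of both groups (x, log scale) against the log2 ratio of members over comparison cells (y), 1 point per measured nuclear gene, with gene sets in colour, dashed lines at 2-fold and a dotted line at the median of 0.33. Myofiber markers and respiratory chain subunits lie mostly below 0, endothelial markers and loci alike to mitochondrial genes lie above 2-fold with 1 exception, Cep295, and most processed pseudogenes lie under the lower dashed line.

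The RNAs that define a myofiber took a smaller part of the nuclear RNA in members. As the label of myofiber asks, all 14 myofiber markers were detected in the members, and Myh counts were found in every member (51 to 1189 per cell). The summed level of the 14 markers was 113163 CPM in members and 182458 CPM in comparison cells. By cell it ran from 47421 to 225005 CPM with a median of 107818 in the members, against a median of 181507 in comparison cells, and 62 of 81 members lay under the 10th percentile of the comparison cells, 152578 CPM. All 14 markers had a log2 ratio below 0, with a median of -0.71 (all measured genes 0.33). Of the 14, 4 were at least 2-fold lower, where 4.78% of all measured genes were.

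Thick and thin filament mRNAs had a median log2 ratio of -0.64 over 22 measured genes. Of these, 4 were at least 2-fold lower and 0 higher, where 4.78% and 32.2% of all measured genes were. Acta1, the skeletal alpha-actin of the thin filament, was at 20828 CPM in members and 31305 CPM in comparison cells, a log2 ratio of -0.59 (limits -0.60 to -0.58). Single members ran from 7781 to 35011 CPM with a median of 21767, and comparison cells had a median of 34149, so that the groups overlapped. Myh1, the heavy chain of fast 2X myosin, was at 4792 and 10265 CPM, a log2 ratio of -1.10, and Myl1, the essential light chain of fast myosin, at 3960 and 8271 CPM, a log2 ratio of -1.06.

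The other 2 filament mRNAs past 2-fold were lower by a larger step. Myh8, the perinatal myosin heavy chain, was at 106 CPM in members and 712 CPM in comparison cells, a log2 ratio of -2.75 (limits -2.92 to -2.59), with -3.05 on lane 1 and -2.50 on lane 2. Tnnc2, the calcium-binding subunit of fast troponin, was at 220 and 974 CPM, a log2 ratio of -2.14 (limits -2.26 to -2.03). By cell, Tnnc2 in members ran from 0 to 1905 CPM with a median of 139, and comparison cells from 0 to 3134 with a median of 757. Both genes were thus lower than the filament list as a whole and were so on both lanes.

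The giant and lattice proteins, which hold the filaments in register, had a median of -0.74 over 22 measured genes. Ttn, which spans from the Z-disc to the middle of the sarcomere, was at 40855 CPM in members and 62630 CPM in comparison cells, and Neb, which runs along the thin filament, at 9785 and 16125 CPM. Of the 22 genes 3 were at least 2-fold lower (all measured genes 4.78%), namely Myoz2, Xirp2 and Dmd (dystrophin), and 1 was higher (32.2%). That gene, Myoz3, a Z-disc protein of fast fibers, was at 152 CPM in members and 29.0 CPM in comparison cells, a log2 ratio of 2.39.

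Triad and calcium handling genes had a median of -0.67 over 20 measured genes. Of these, 3 were at least 2-fold lower and 1 higher (all measured genes 4.78% and 32.2%). Atp2a1, the calcium pump of the sarcoplasmic reticulum in fast fibers, was at 1036 CPM in members and 3160 CPM in comparison cells, a log2 ratio of -1.61 (limits -1.66 to -1.56). Trdn (triadin), which anchors calsequestrin at the release channel, had -1.07, and Stac3, which couples the voltage sensor to that channel, had -1.15. Ryr1, the release channel itself, was at 3786 and 4943 CPM, a log2 ratio of -0.38. The gene that was higher was Casq2, the calsequestrin of slow and cardiac muscle, with 1.03 and only 94 counts in the members.

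Enzymes of sugar use had a median of -0.62 over 23 measured genes, with 5 at least 2-fold lower (all measured genes 4.78%). Gapdh was at 552 CPM in members and 1612 CPM in comparison cells (log2 ratio -1.55), and Pgk1, the next enzyme of glycolysis, at 63.6 and 187 CPM (also -1.55). Aldoa, at 9486 and 13601 CPM, and Eno3, the muscle enolase, at 3355 and 4822 CPM, both had a log2 ratio of -0.52. Hk2, the insulin-responsive hexokinase of muscle, had -1.09, whereas Hk1, the hexokinase of most other tissues, had 2.23.

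Most nuclear mRNAs for the respiratory chain took a smaller part of the nuclear RNA in members. Over 78 measured subunits of the respiratory chain the median log2 ratio was -0.82. Of these, 19 were at least 2-fold lower and 1 at least 2-fold higher (all measured genes 4.78% and 32.2%). For complex I all 37 measured subunits had a log2 ratio below 0, from -1.82 to -0.22. Ndufb4, a membrane-arm subunit, was the lowest, at 13.3 CPM in members and 47.1 CPM in comparison cells. For complexes II to V the median was -0.81 over 41 genes, and Cox7c, a small subunit of cytochrome oxidase, was at 102 and 325 CPM (log2 ratio -1.68, limits -1.85 to -1.51). By cell, Cox7c in members ran from 0 to 385 CPM with a median of 75.7, and comparison cells from 0 to 888 with a median of 317.

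The exception among the 78 was Cox6a1, the form of this subunit found outside striated muscle, with a log2 ratio of 1.35. Its muscle counterpart Cox6a2 had -0.66. Per ERCC count the respiratory chain mRNAs were lower by a median of 13.4-fold in members, while mitochondrial counts per ERCC count were 1.93-fold higher by the medians over cells. On the spike-in scale the log2 ratio of the mitochondrial mRNA mt-Nd1 was 1.07, and that of the 37 measured complex I mRNAs was -3.75 by the median. All measured nuclear genes were at -2.59 by the median on this scale, and only 205 of 10644 (1.93%) lay above 0. A sign below 0 thus does not set complex I apart from other nuclear genes. The mitochondrial counts, mt-Nd1 among them, also served to choose the members, so the opposite signs are a description and support nothing.

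Genes for the citric acid cycle and fat oxidation had a median of -0.64 over 31 measured. Those for the mitochondrial ribosome had -0.58 over 70, with 8 at least 2-fold lower (all measured genes 4.78%). In the first list Cd36, a fatty acid transporter that endothelial cells and adipocytes carry as well, was the 1 gene at least 2-fold higher, with 2.22. The genes that maintain and express mitochondrial DNA had a median of -0.26 over 14 measured, with 0 at least 2-fold lower, and the sign turned (0.25) against 12 comparison cells matched in depth. Polg2, the accessory subunit of the mitochondrial DNA polymerase, had 1.91 from 59 counts in the members. Lars2, the mitochondrial leucyl-tRNA synthetase and a locus where reads alike to ribosomal RNA are known to map, was at 2363 and 1301 CPM (0.86).

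Cytosolic ribosomal protein mRNAs, which are short and densely translated, had a median of -0.63 over 78 measured genes. Of these, 7 were at least 2-fold lower and 1 higher (all measured genes 4.78% and 32.2%). Rpl24 was at 174 CPM in members and 397 CPM in comparison cells (-1.19), and the exception was Rpl3, with 1.55. Muscle fibers are known to use the paralog Rpl3l in place of Rpl3. Chaperones had a median of -0.48, with Hspb7, a small heat shock protein of muscle, at -1.76. For atrophy and autophagy the median was -0.28, with Mstn (myostatin, which limits muscle growth) at -1.87 and Mt2 (a metallothionein) at 1.21.

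The lists of myofiber structure, sugar use, respiratory chain and both kinds of ribosome kept a negative median within every one of the 8 plates and under every one of 12 alternatives each. On the spike-in scale their medians were 11.4-fold to 13.5-fold lower in members, compared with 6.04-fold for all measured genes. Members had fewer reads per UMI and fewer counts throughout, and the part of either in these values was not tested.

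**Figure D3:**
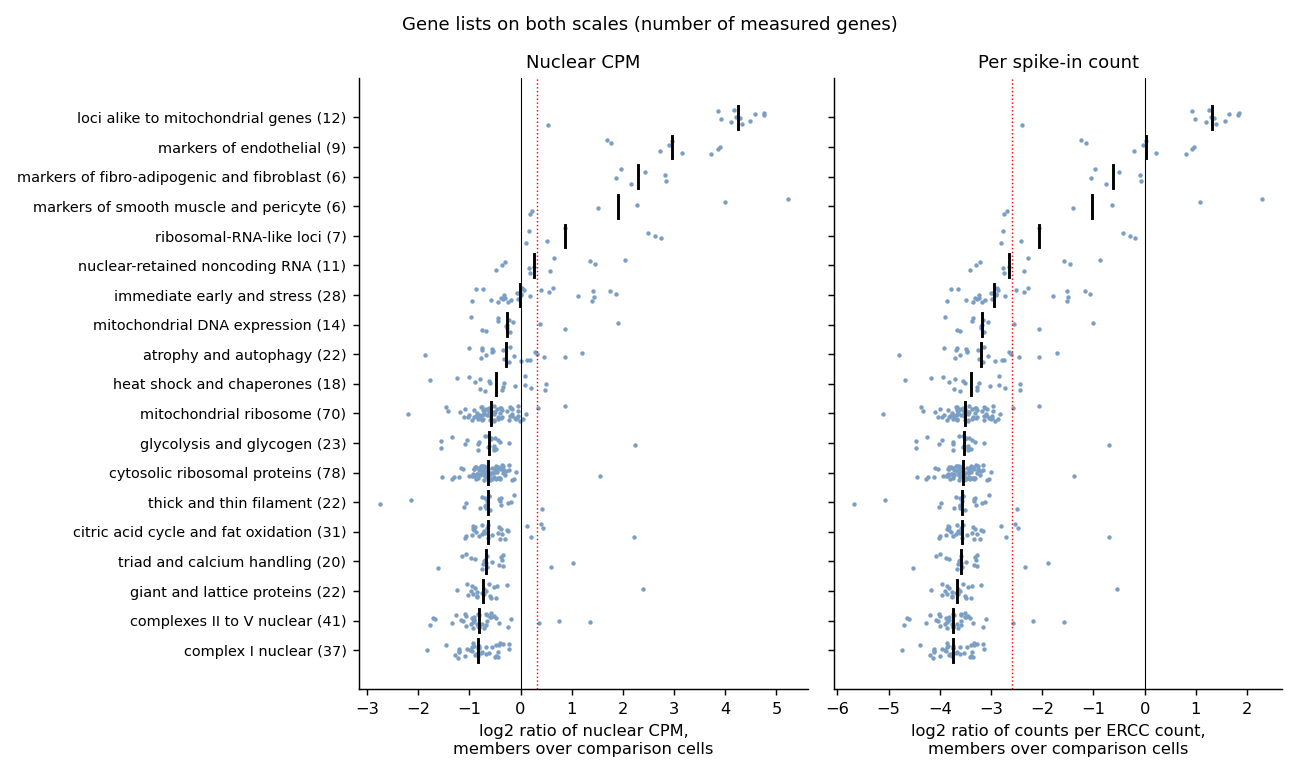
Log2 ratio of members over comparison cells for each measured gene (points) and the median (black bar) of 19 gene lists, on nuclear CPM (left) and per ERCC count (right), with the number of measured genes in brackets, a black line at 0 and a red dotted line at the median of all measured genes. The muscle and respiratory chain lists lie left of the dotted line on both scales, and of the 19 lists drawn only the loci alike to mitochondrial genes and the endothelial markers have a median above 0 per ERCC count.

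Of the nuclear RNAs that took a larger part in the members, a first kind was that of other cells of the muscle. All 9 listed endothelial markers were measured and at least 2-fold higher, where 32.2% of all measured genes were, with a median log2 ratio of 2.95. Their summed level was 1271 CPM in members and 194 CPM in comparison cells. A gene could count as measured through the members alone, so this count is a description. By cell the sum ran from 50.96 to 5459 CPM with a median of 1047 in members, and from 0 to 2976 with a median of 156 in comparison cells. No member was at 0, and 69 of 81 lay above the 90th percentile of the comparison cells, 321 CPM.

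Flt1 and Kdr, the VEGF receptors of vessels, were at 390 and 81.6 CPM in members and at 27.0 and 5.52 CPM in comparison cells, log2 ratios of 3.85 (limits 3.74 to 3.97) and 3.89 (limits 3.63 to 4.14). Cdh5 (VE-cadherin) had 3.73, and Pecam1, which joins endothelial cells, had 2.89. Further genes of capillary endothelium were among the 15 with the highest ratios of all, namely Gpihbp1, which holds lipoprotein lipase on the capillary wall, with 4.65, and the water channel Aqp1 with 4.44. For Flt1 the lanes gave 4.52 and 2.99, so that the direction was the same and the size differed.

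Per ERCC count the picture was another. The 9 endothelial markers had a median log2 ratio of 0.03, with 5 of the 9 above 0, which means about as many endothelial counts per well in both groups beside 7.32-fold fewer nuclear counts by the medians. Summed over the cells, endothelial counts were 192 per 1000 ERCC counts in members and 222 in comparison cells. The 5 members with the most endothelial counts held 28.5% of the summed endothelial counts, against 18.2% for the 5 highest comparison cells.

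RNAs of other non-muscle cells moved in the same direction on nuclear CPM. All 6 measured fibroblast markers were at least 2-fold higher, with a median of 2.30, and Dcn (decorin, of the collagen matrix) was at 205 CPM in members and 28.9 CPM in comparison cells. Of the smooth muscle and pericyte markers 4 of 6 were at least 2-fold higher, with a median of 1.90 and log2 ratios from 0.18 to 5.22, the highest being Rgs5 of pericytes at 464 and 12.5 CPM. Per ERCC count the median log2 ratios were -0.62 for the fibroblast and -1.02 for the smooth muscle markers. Fabp4, the fatty acid binding protein of adipocytes and capillary endothelium, was at 216 and 5.66 CPM (5.25, and 2.33 per ERCC count). The 3 measured red cell genes had a median of 4.57 (1.65 per ERCC count), but 5 members held 76.4% of these counts and 43 members had 0. Of all measured genes 32.2% were at least 2-fold higher. A marker could count as measured through the members alone, as Fabp4 did, and how many did so was not counted. The counts and medians of these lists thus describe the genes measured and support nothing.

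Markers of satellite cells, Schwann cells, macrophages and tendon were at the edge of detection. Of the lists, 1, 3, 2 and 2 genes were measured, and these too could be measured through the members alone. Their medians were 2.06, 1.63, 2.75 and 0.22, with 379 counts or fewer in all members for each list. The sort took particles of high optical extinction, and whether these RNAs were free or carried by attached cells was not tested.

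Cells with a smaller myofiber share of their nuclear RNA had a larger endothelial share. Of the 81 members 37 had under 100000 CPM of myofiber markers, and their endothelial sum had a median of 1883 CPM. Only 7 of 168 comparison cells were under that level, and their endothelial median was 1044 CPM. Over the 81 members the rank correlation between both sums was -0.69, and over the 168 comparison cells it was -0.31. These correlations are descriptions over cells of 1 mouse that share a common total.

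**Figure D4:**
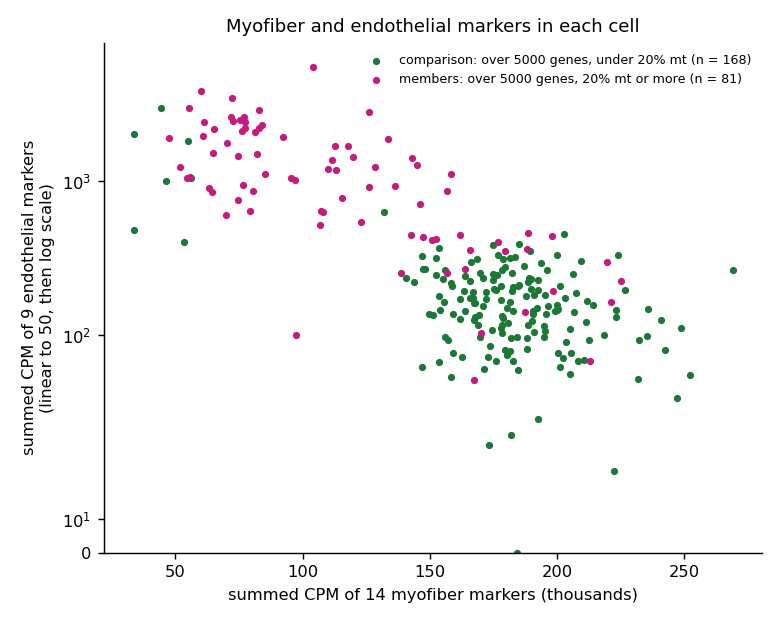
Summed nuclear CPM of 14 myofiber markers (x, in units of 1000 CPM) against that of 9 endothelial markers (y, linear to 50 and log above), 1 point per cell, members and comparison cells in colour. Most comparison cells form 1 group near 181507 CPM of myofiber markers. Under 100000 CPM lie 37 members and 7 comparison cells, most of them with a larger endothelial share.

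The gene minimum was part of the rule, and its part in these values was not tested. The 318 whole myofibers with 20% or more mitochondrial counts that had 5000 genes or fewer held a median of 143394 CPM of myofiber markers and 535 CPM of endothelial markers. Both medians lie between those of the members (107818 and 1047 CPM) and those of the comparison cells (181507 and 156 CPM). Their median of 6455 nuclear counts makes single values coarse. In the 16 members of plate row 5, which also had the fewest reads per UMI (median 2.84), the medians were 160194 CPM of myofiber and 379 CPM of endothelial markers.

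Depth could be matched in few cells, as only 12 comparison cells had nuclear counts within the quartiles of the members, 22222 to 39667. Against these 12 the endothelial median was 1.39 and the myofiber median -0.43, while the smooth muscle and fibroblast medians were reversed, at -0.74 and -0.65. Of the 12 cells 3 had under 100000 CPM of myofiber markers, and 1 cell held 80.5% of their smooth muscle counts and 1 cell 58.2% of their fibroblast counts. The respiratory chain median was -0.34 and that of the cytosolic ribosomal proteins -0.12 against the 12 cells, nearer to 0 than before. With all cells thinned to 19000 nuclear counts, the smooth muscle and fibroblast medians were 1.115 and 1.598.

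The second kind comprised nuclear loci that look like mitochondrial genes. Copies of mitochondrial DNA inserted in the chromosomes are known as nuclear mitochondrial segments, and a read from a mitochondrial transcript can match such a copy as well as its source. By sequence search of the annotated transcripts, 18 nuclear genes matched a mitochondrial gene over at least 66 bases, and 12 of them were measured. Of the 12, 11 were at least 2-fold higher in members, where 32.2% of all measured genes were, with a median log2 ratio of 4.25. The exception was Cep295, whose match is a short transfer RNA stretch, with 0.53. Together the listed loci held 11754 CPM in members and 665 CPM in comparison cells. A locus could count as measured through the members alone, as Gm28438, Gm11410, Gm4076 and Gm13339 did (3.13 to 8.81 CPM in comparison cells). The count and median thus describe these loci and support nothing.

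A row of these loci lies on the minus strand of chromosome 1 in GRCm38, where Gm28439, Gm28438, Gm28437, Gm10925, Gm28661 and Gm29216 match mt-Nd4, mt-Nd3, mt-Co3, mt-Atp6, mt-Co2 and mt-Co1 at 99.7% to 100% identity. A second row on chromosome 2 (Gm13341, Gm13340 and Gm13339, at 95.9% to 97.6%) lies within the span of Myo3a. To show how alike they are, 66 bases, the length of the cDNA read in this study, are printed from Gm28661 (chr1:24615500-24615565, minus strand) with mt-Co2 (chrM:7013-7078, plus strand), and from Gm13340 (chr2:22589522-22589587, minus strand) with mt-Co1 (chrM:5388-5453, plus strand). Each is written 5′ to 3′ from the GENCODE vM21 transcripts, in capitals where the pair differs, and the first pair has no such base.
Gm28661: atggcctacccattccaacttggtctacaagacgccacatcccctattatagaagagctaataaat
mt-Co2: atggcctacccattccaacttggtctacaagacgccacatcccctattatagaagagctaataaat
Gm13340: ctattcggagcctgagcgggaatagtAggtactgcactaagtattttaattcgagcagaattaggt
mt-Co1: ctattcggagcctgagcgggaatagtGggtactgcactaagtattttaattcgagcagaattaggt

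Gm28661 was at 1356 CPM in members and 50.1 CPM in comparison cells, a log2 ratio of 4.76 (limits 4.68 to 4.83). Single members ran from 101 to 5308 CPM with a median of 733, and comparison cells from 0 to 341 with a median of 41.1. Gm28437, the copy of mt-Co3, was at 3543 and 191 CPM (4.21), and Gm13340 at 1757 and 117 CPM (3.91). Gm28661 held 4068 counts in the members, whereas mt-Co2, to which it is identical over 681 bases, held 97.

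The levels of these loci are set beside the mitochondrial counts next. The ratio of mitochondrial to nuclear counts was higher in members by 3.95 on the log2 scale, close to the ratios above. Per mitochondrial count, Gm13340 had a log2 ratio of -0.04 between members and comparison cells, Gm29216 -0.10, Gm28437 0.26 and Gm28661 0.80. Summed over the 6 loci of chromosome 1, the level ran from 1520 to 31461 CPM in members with a median of 6516, and from 120 to 4219 CPM in comparison cells with a median of 499, and 60 of 81 members lay above every comparison cell. Over the members, the rank correlation of this level with mitochondrial per nuclear counts was 0.93, a description of 81 cells in which both quantities share the nuclear total as divisor and the second also served to choose the cells.

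**Figure D5:**
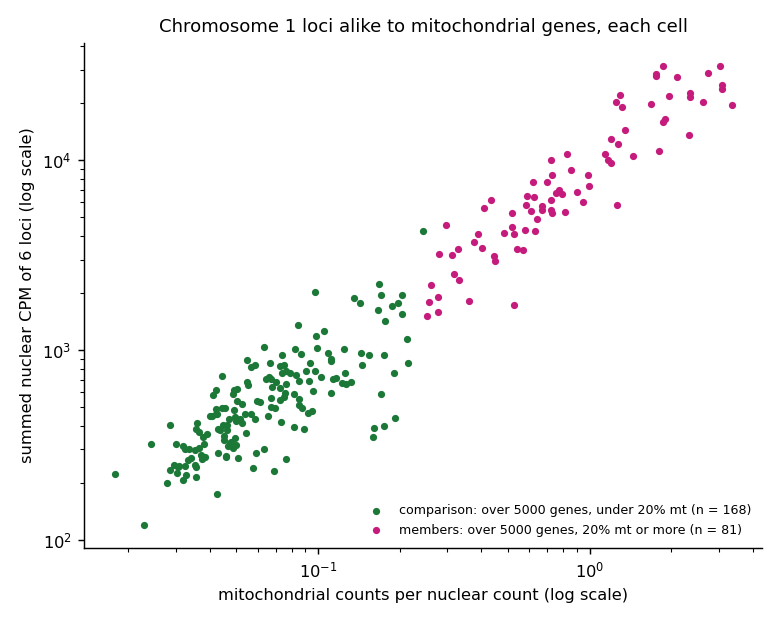
Mitochondrial counts per nuclear count (x, log scale) against the summed nuclear CPM of 6 chromosome 1 loci alike to mitochondrial genes (y, log scale), 1 point per cell. Members and comparison cells lie along 1 band, members from 1520 to 31461 CPM and comparison cells from 120 to 4219 CPM, so that the level of the loci follows the quotient that the rule used.

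Of 10644 measured genes, 33 (0.31%) had a rank correlation of 0.7 or more with mitochondrial per nuclear counts over the members, with the same shared total. Of the 33, 9 were among the loci matched above and 24 were not, and the genes named next were picked from the 24 after their values were seen. Over all measured genes 190 (1.79%) were within 2-fold between groups per mitochondrial count. Trhde was at 5767 CPM in members and 455 CPM in comparison cells (log2 ratio 3.66, and -0.29 per mitochondrial count). Ube2n, a ubiquitin-conjugating enzyme, was at 2775 and 200 CPM (3.80), and Myo3a, whose span holds the copies on chromosome 2, at 2695 and 181 CPM (3.90). The unnamed loci Gm13667 and B230303A05Rik were at 7678 and 6525 CPM in members and at 871 and 714 CPM in comparison cells. Per mitochondrial count these 5 genes had log2 ratios from -0.81 to -0.06.

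Some list members also varied with the mitochondrial counts. Over the members Tek, a receptor of endothelial cells, had a rank correlation of 0.64 with mitochondrial per nuclear counts, whereas the other 8 endothelial markers had -0.18 to -0.02. Myoz3, the lattice gene that was higher, had 0.62. Without Tek, whose log2 ratio was 1.78, the remaining endothelial markers ran from 1.68 for Vwf to 3.89 for Kdr.

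The third kind comprised long and noncoding RNAs. The 382 measured lincRNAs had a median log2 ratio of 1.38, and 246 of them (64.4%) were at least 2-fold higher. For 141 antisense RNAs the median was 1.13. For 9675 protein-coding genes it was 0.30, with 2972 (30.7%) at least 2-fold higher and 326 (3.37%) lower. A gene could count as measured through the members alone, and how many lincRNAs and antisense RNAs did so was not counted. Their shares thus describe these genes and support nothing. Protein-coding genes were then put into 5 bins of equal number by their length on the chromosome, introns included. The 1935 shortest (374 to 12833 bases) had a median of -0.39 and the 1935 longest (113583 bases or more) had 1.22, with 1119 of these at least 2-fold higher. With genes of at least 50 CPM alone, the medians of the shortest and longest bins were -0.57 and 0.99. By summed exon length the medians also rose, from -0.23 in the shortest bin to 0.64 in the longest. With genes of at least 50 CPM these were -0.54 and 0.30. The parts of exon length and of length on the chromosome were not tested. By GC content of the transcript the 5 bins differed less, with medians from 0.14 to 0.40.

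RNAs known to be retained in the nucleus had a median of 0.27 over 11 measured genes, below that of all genes, and the sign turned with TMM factors (-0.08). Against the 12 depth-matched cells it was -0.16. Of the 11, 3 were at least 2-fold higher, where 32.2% of all measured genes were. They were the maternally expressed Rian (2.04) and Meg3 (1.46) and the lincRNA Pvt1 (1.35). Malat1, an RNA of nuclear speckles, was at 1774 CPM in members and 2284 CPM in comparison cells, a log2 ratio of -0.36. By cell, Malat1 ran from 497 to 5605 CPM in members and from 139 to 9135 CPM in comparison cells, so that the members lay within their range.

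Immediate early and stress genes had a median of -0.01 over 28 measured, and -0.36 with TMM factors. By nuclear CPM 6 were at least 2-fold higher and 0 lower, where 32.2% and 4.78% of all measured genes were, so that the count of the list was not above that of all genes. The 6 were Ier3 (1.86), Klf4 (1.75), Fosb (1.43), Klf6 (1.41), Cdkn1a (1.40) and Fosl2 (1.13), while Fos and Egr1, at -0.39 and -0.31, were not among them. Fosb was at 141 CPM in members and 52.4 CPM in comparison cells. Loci where reads alike to ribosomal or satellite sequence collect had a median of 0.86 over 7 measured, with Gm10800 at 450 and 67.3 CPM (2.74).

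Processed pseudogenes, intronless copies of mRNAs, were among the genes with the lowest ratios. A gene could count as measured through the comparison cells alone, and 103 of 177 measured processed pseudogenes were under 10 CPM in members, so that their count describes these genes and supports nothing. Of the 177, 145 (81.9%) were at least 2-fold lower in members, with a median log2 ratio of -2.01, and processed pseudogenes made up 14 of the 15 genes with the lowest ratios. The lowest, Gm12017, was at 1.67 CPM in members and 27.9 CPM in comparison cells (-4.07). With 21 transcribed processed pseudogenes added, 173 of 198 matched a measured protein-coding gene over at least 66 bases at 90% identity or more, and the matching gene with the most counts was taken as the parent. Gapdh was the parent of 95, so the 173 pairs came from 69 parents. In 154 of 173 pairs the pseudogene was lower than its parent, by a median of -0.62 on the log2 scale, with -0.57 on lane 1 and -0.67 on lane 2. Over the 69 parents the median difference was -0.51, and for 59 of them it was below 0. The pairs carry the limit given above, since a pseudogene could be measured through the comparison cells alone, so these differences are a description. Of the 74 processed pseudogenes at 10 CPM or more in members, 48 were at least 2-fold lower, with a median log2 ratio of -1.27. Pair differences for these alone were not computed.

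Mylf-ps and Gm13292, chosen after their values were seen, show the pattern and how few bases set copy and parent apart. The stretches printed are 66 bases of Mylf-ps (chr12:101222318-101222383, minus strand) with exon 3 of Myl1 (chr1:66930230-66930295, minus strand), and of Gm13292 (chr2:11409943-11410008, minus strand) with exon 3 of Gapdh (chr6:125163371-125163436, minus strand), coding in both parents. They are written 5′ to 3′ from GENCODE vM21 on GRCm38, with the differing base in capitals.
Mylf-ps: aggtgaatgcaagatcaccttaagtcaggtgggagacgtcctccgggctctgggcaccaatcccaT
Myl1: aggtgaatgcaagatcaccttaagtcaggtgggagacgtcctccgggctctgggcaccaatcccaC
Gm13292: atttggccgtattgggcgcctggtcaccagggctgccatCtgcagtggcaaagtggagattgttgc
Gapdh: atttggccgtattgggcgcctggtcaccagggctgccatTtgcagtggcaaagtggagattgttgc

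Mylf-ps was at 178 CPM in members and 1093 CPM in comparison cells, a log2 ratio of -2.62, against -1.06 for Myl1. Its counts were 4.50% of those of Myl1 in members and 13.2% in comparison cells, and they were 5.04% in whole myofibers with few genes and 4.32% in fragments. Gm13292 was at 24.99 and 110 CPM (-2.13), which was 4.53% and 6.81% of the counts of Gapdh. Over the 173 pairs the median share of the parent was 2.28% in members and 3.59% in comparison cells. In the 42 comparison cells with the fewest reads it was 2.91%, in whole myofibers with few genes 1.82% and in fragments 1.77%. Reads per cell thus moved with this share, and their part in it was not tested.

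The number of genes at equal depth is described here without a test, since the gene minimum was part of the rule and shallow cells with few kinds of RNA could not become members. With every cell thinned to 19000 nuclear counts, 71 members had a median of 5284 nuclear genes and the 168 comparison cells 4788.5, and 10 shallower members were left out. The difference of 495.5 genes was above 0 on all 8 plates, from 42.5 to 1192. Before thinning the medians were 6458 and 12247 genes with the mitochondrial genes included. The groups overlapped, from 3826 to 6957 genes in members and from 3903 to 6956 in comparison cells.

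By the myosin heavy chain with the most counts, 66 of 81 members were Myh1-dominant and 15 (18.5%, limits 10.8 to 28.7) were Myh2-dominant, that is fast 2A. Of the comparison cells 51 of 168 (30.4%, limits 23.5 to 37.9) were Myh2-dominant. On lane 1 the shares were 12 of 41 members and 27 of 86 comparison cells (29.3% and 31.4%). On lane 2 they were 3 of 40 members (7.5%, limits 1.57 to 20.4) and 24 of 82 comparison cells (29.3%, limits 19.7 to 40.4). The shares thus differed more on lane 2, where the limits still overlapped and the member share rests on 3 cells. No member was dominated by Myh4, Myh7 or Myh8, which allows a share of up to 3.70% for each (3 of 81 cells). Myh2-dominant members had a median mitochondrial share of 34.5% and Myh1-dominant members 44.5%, the reverse of the order in comparison cells, with 6.96% and 4.81%. The share itself split the groups and only 15 members were Myh2-dominant, so this order is a description.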

How the data were processed

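The deposited table holds, per the labels and the study's methods, UMI counts per gene and cell that the authors made with zUMIs, with STAR 2.5.4b (per the submitters' processing notes), on GRCm38, and ERCC counts and reads per cell stand beside them. In the unit check these columns are named expected counts, since 2 description lines deposited in the same columns hold percentages. The gene values are whole UMI counts and were used as they stand. The members and gene lists were chosen with earlier results of these data known.

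Mitochondrial genes were held apart. Counts were summed per group and divided by the nuclear total (CPM), and genes with a mean of at least 10 CPM were kept. Ratios have exact conditional binomial limits, shares exact Clopper-Pearson limits and a count of 0 a floor of 3, at 95%. UMIs are amplified before counting, so limits cover counting error only. Cells were thinned without replacement to 19000 nuclear counts (seed 1). The genes named were the 15 highest and 15 lowest ratios that held at 2-fold in thinned cells and on both lanes with a count in at least 25% of the cells of the higher group, list members past 2-fold, the 2 genes with the most counts of each list, and the mitochondrial genes. Matches to mitochondrial genes and parents were searched with blastn 2.17.0 in GENCODE vM21 transcripts (at least 66 bases, 90% identity). edgeR 4.0.16 served for TMM factors only. Calculations used Python 3.11.15, numpy 2.4.6, pandas 2.3.3 and scipy 1.17.1, and were tested on simulated data. Each well held 1 sorted fiber, so no doublet caller was run. The 763 cells had different full barcodes. A value was taken to be moved by an alternative when it changed by more than the SD over 8 plates, a count when it changed by more than 1.5 times, and a share when it left its limits.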

Additional observations from a re-analysis of the deposited data

How the results depend on the processing

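Only 1 group of cells from 1 mouse was sampled, on 2 lanes, so all values describe these cells. No paired analysis was possible because the replicate numbers are those of the 2 lanes of 1 group, with no second group to pair. Members and comparison cells shared plates, and medians of within-plate ratios gave 3207 higher and 604 lower genes. Leaving out 1 lane at a time gave 2368 to 4473 genes at least 2-fold higher and 510 to 817 lower, 40 to 41 members, 325.5 to 897 more genes at equal depth, and a Myh2-dominant share of 7.5% to 29.3%. TMM factors gave 1436 lower genes. With the 12 comparison cells at the depth of the members, 2054 genes were higher and 1228 lower, and the endothelial median was 1.39. A mean CPM of at least 2 gave 8038 higher and 1055 lower genes, and of at least 50, 574 and 166. Each minimum keeps another number of genes, so these counts are no shares. Over the 5 GC bins of protein-coding genes, 28.1% to 34.4% were at least 2-fold higher with a mean of at least 10 CPM. With at least 50 CPM it was 12.4% to 22.2%. A gene minimum of 4000 gave 123 members, and a share counted without the mitochondrial ribosomal RNAs gave 52.

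Alternatives chosen after the data were seen left out plate row 5 (832 lower genes), took medians within plate rows, left loci that follow mitochondrial counts out of the nuclear total, and used the deposited gene number and share, which chose the same number of cells, 81. Over the 26 other gene lists, 285 alternative values stayed within the spread over plates, 25 moved beyond it and 2 with reported medians past 2-fold were reversed, the smooth muscle and fibroblast medians at -0.74 and -0.65 against the 12 depth-matched cells. Of all lists, 6 changed sign under an alternative, and the other 4 had medians nearer to 0 (mitochondrial DNA expression, nuclear-retained RNA, immediate early genes and tendon). The cause of these changes was not tested.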
